A study of Mus musculus with 9 samples.

Results

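The genes described here are the 31 genes of peroxisome assembly, membrane and division measured in livers of female Crlj:CD1(ICR) mice, an outbred stock. They are 13 peroxins, 8 membrane transporters and other membrane proteins, 2 matrix proteases, 3 fission genes and 5 enzymes of ether lipid synthesis and alpha-oxidation. Members are set by gene name, with no threshold on their values. Each was read from a probe set annotated to that gene alone, and a gene with several such probe sets was represented by the one with the highest mean signal over the 9 arrays. All 31 had such a probe set and all 31 passed the filter on dim signals, out of 12466 genes that passed it and 18193 that had a probe set of their own. Each of the 31 also lay above that filter on every array of every group, so none entered through 1 group alone.

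Mice were bought at an age of 9 weeks and quarantined for 1 week, and then received powdered diet with 5000 ppm permethrin, with 5000 ppm clofibrate, or without added chemical, for 2 weeks. Each group had 3 mice and each liver had its own Affymetrix array. Permethrin is a pyrethroid insecticide, and clofibrate is a lipid-lowering fibrate drug that activates the nuclear receptor PPAR alpha. The treated samples' descriptions call the animals rats, whereas the organism, source name, strain and array are those of mouse, and all samples were taken as mouse.

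Peroxisomes are organelles with a single membrane that shorten very long and branched fatty acids, make the first intermediates of ether lipids and break down hydrogen peroxide. Their proteins are built in the cytosol and brought in by peroxins, some of which place proteins in the membrane while others carry enzymes into the matrix. The organelle multiplies by growth and division, which needs the PEX11 proteins to elongate the membrane and a fission machinery shared with mitochondria. In rodent liver, fibrates are known as peroxisome proliferators, acting through PPAR alpha.

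Values are MAS5 signals, a linear measure of probe set brightness that was scaled to the same trimmed mean on every array. The median signal per array was 14.3 to 15.5 in permethrin livers, 13.4 to 17.9 in clofibrate livers and 15.2 to 17.4 in control livers. The brightest probe set of an array read 12791.6 to 13408.5 in permethrin livers, 10713.6 to 12057.7 in clofibrate livers and 14386.9 to 14898.7 in control livers. All 8 hepatocyte markers were detected, and their summed signal was 58504.5 to 64613 in permethrin livers, 45278.9 to 57841.1 in clofibrate livers and 66948.5 to 72534.8 in control livers. None of the 8 passed the test in permethrin livers, and 4 of 8, Alb, Apoa1, Cps1 and Fgb, fell in clofibrate livers. That count was 1 without control replicate 3, 2 without control replicate 1, control replicate 2 or clofibrate replicate 3, and 0 with median centring or with scaling to the array's hybridization controls. Summed endothelial markers were 2237 to 2528 in permethrin livers, 1788 to 2002 in clofibrate livers and 2474.5 to 2824 in control livers, and 1 of the 8, Fcgr2b, fell with clofibrate. No Kupffer cell, stellate cell, cholangiocyte or lymphocyte marker passed the test in either treated group, and no adipocyte marker was above the filter. Only 3 of 6 cholangiocyte and 1 of 6 lymphocyte markers were tested. Summed Kupffer cell markers were 2453 to 5158 in permethrin livers, 2689 to 3815 in clofibrate livers and 2908 to 3387 in control livers. The part of these shifts in the results on peroxisome genes was not tested. In whole liver, fewer cells of a type and less RNA per cell cannot be told apart.

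In livers of permethrin-fed mice, 5 of the 31 peroxisome genes rose and 1 fell relative to control livers (limma, Benjamini-Hochberg adjusted p under 0.05). The risers were Pex11a, Abcd3, Lonp2, Pex14 and Pex13, and the gene that fell was Pecr. Calls in either direction covered 19.4% of the members, against 2.13% of all genes tested, and rises 16.1% of the members against 1.28% of all genes. Falls were called for 0.850% of all genes. All genes tested include dim ones. Under a stricter filter (signal above 73.9 on at least 3 arrays), 8 of 30 members (7 higher) and 364 of 7365 genes (204 higher) were called. The median log2 change of the 31 was 0.19, against -0.04 over all genes. For 12 members the 3 permethrin arrays all lay above the 3 control arrays, which held for 9.53% of all genes, and for 1 they all lay below, as for 13.2% of all genes, or 22.7% on either side. An unadjusted p under 0.05 was found for 11 members, and for 15.8% of all genes. Leaving out control replicate 1 or 3 left 2 members called, and leaving out control replicate 2 or any 1 permethrin array left 3. Centring each array on its median called 2, both higher, scaling to the hybridization controls (transcripts added in fixed amounts) called 4, all higher, and a fit without the intensity trend called 1. Of all 12466 genes these settings called 143 (117 higher), 165 (143 higher) and 80 (62 higher), in that order.

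In livers of clofibrate-fed mice, 8 of the 31 rose and 1 fell. Pex11a, Abcd3, Lonp2 and Pex14 rose here too, joined by Pex19, Pex3, Pex5 and Pxmp4, and Pecr was again the gene that fell. These calls covered 29.0% of the members, against 7.03% of all genes, and rises 25.8% against 3.22%. Falls were called for 3.80% of all genes. Under the stricter filter, 10 of 30 members (9 higher) and 1033 of 7365 genes (461 higher) were called. The median log2 change was 0.19 for the members and -0.04 for all genes. No overlap with the control arrays was seen for 15 members on the high side, as for 11.6% of all genes, and for 3 on the low side, as for 15.6%, or 27.2% on either side. Unadjusted p was under 0.05 for 15 members and for 21.0% of all genes. Without control replicate 1 or clofibrate replicate 3, 4 members were called, all higher. Median centring called 4, all higher, scaling to the hybridization controls 13, all higher, and a fit without the trend 5. Of all 12466 genes these settings called 487 (305 higher), 1123 (1034 higher) and 397 (219 higher), in that order. Scaling to the hybridization controls put the median log2 change of all genes at 0.29. Both comparisons use the same 3 control arrays, so they are not independent. The 4 genes called higher in both treated groups compare with 130 of all genes, or 1.04%.

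**Figure D1:**
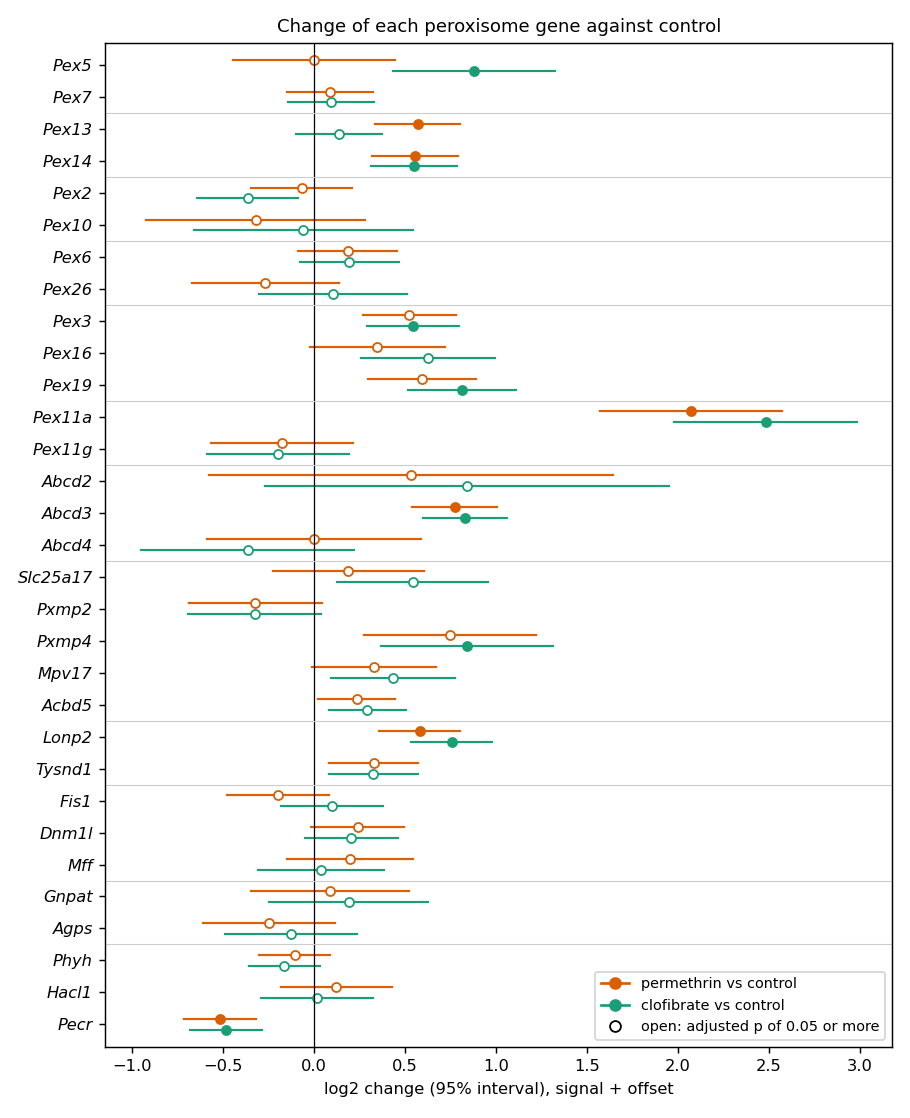
Log2 change of each of the 31 peroxisome genes against control, for permethrin (orange) and clofibrate (green), n = 3 arrays per group, with bars for the 95% interval of the limma fit. Rows run by role and filled circles passed an adjusted p of 0.05. Pex11a stands at 2.07 and 2.48, apart from the other genes, and Pecr is the filled circle left of 0 in both.

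Clofibrate replicate 1 read the lowest of its group for 20 of the 31 members and the highest for 4, with a median deviation from the group mean of -0.10 on the log2 scale. It also had the highest median signal of all arrays, 17.9, and the lowest maximum, 10713.6. Replicate 2 of that group read the highest for 18 members. For Abcd3, for example, the SD of the signal was 1079 in clofibrate livers and 132 in control livers. Without clofibrate replicate 1, 9 members were again called against control, but Pxmp4 had lost its call (limma adjusted p 0.0929) and Pex16 had gained one (0.00638).

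Pex11a had the largest change of the 31 genes in both treated groups. PEX11 alpha is a membrane-shaping protein of the peroxisome and, in rodents, the PEX11 form known to respond to peroxisome proliferators. Its signals were 1941, 1286 and 2765 in permethrin livers, 2559, 2135 and 2980.1 in clofibrate livers, and 426, 501 and 429 in control livers. Every treated array exceeded every control array, and the arrays of the treated groups overlapped each other. Means were 1998 ± 741 with permethrin, 2558 ± 423 with clofibrate and 452 ± 42.3 in controls (SD, n = 3). The log2 change was 2.07 ± 0.23 (SE) with permethrin, or 4.20-fold, at a limma adjusted p of 0.00101. With clofibrate it was 2.48 ± 0.23, or 5.59-fold, at an adjusted p of 0.000146. A separate probe set for Pex11a gave log2 changes of 2.14 ± 0.18 (limma adjusted p 0.000164) and 2.82 ± 0.18 (adjusted p 1.26e-05). On that probe set the signals were 1292, 1329 and 2046 with permethrin, 1985, 2497 and 2922 with clofibrate, and 364, 344 and 322 in controls. Both probe sets were called in both treated groups. On the brighter one, leaving out any single array ended neither call.

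The other measured member of the family, Pex11g, passed in neither group. PEX11 gamma acts in the same membrane step. Its signals were 287, 185 and 251 with permethrin, 196, 281 and 232 with clofibrate, and 251, 278 and 276 in controls. All groups overlapped, with log2 changes of -0.18 ± 0.18 and -0.20 ± 0.18.

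Promoter windows of this pair, the member with the largest change and its uncalled relative, are shown because PPAR alpha binds DNA at direct repeats of the motif AGGTCA spaced by 1 base (AGGTCANAGGTCA). They come from RefSeq on build GRCm38.p6 and run from 250 bases before to 50 bases after the annotated start. Capitals mark the single motif AGGTCA on either strand. The Pex11a window is chr7:79743082-79743381 on the minus strand, with 57.3% G and C, and the Pex11g window is chr8:3467599-3467898 on the minus strand, with 55.3%.
Pex11a: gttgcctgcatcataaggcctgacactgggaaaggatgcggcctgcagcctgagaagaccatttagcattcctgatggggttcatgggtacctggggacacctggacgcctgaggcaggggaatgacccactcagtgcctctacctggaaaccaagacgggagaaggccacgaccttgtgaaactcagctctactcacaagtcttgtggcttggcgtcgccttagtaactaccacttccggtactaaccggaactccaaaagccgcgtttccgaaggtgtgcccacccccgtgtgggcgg
Pex11g: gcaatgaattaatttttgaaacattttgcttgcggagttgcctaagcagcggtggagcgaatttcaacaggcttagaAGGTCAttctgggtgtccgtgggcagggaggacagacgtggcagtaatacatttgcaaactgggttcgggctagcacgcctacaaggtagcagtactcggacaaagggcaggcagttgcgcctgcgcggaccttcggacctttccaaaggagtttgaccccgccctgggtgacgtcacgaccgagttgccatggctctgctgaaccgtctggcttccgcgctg
The Pex11g window holds 1 such motif, whose first base is 173 bases before the start, and the Pex11a window holds none.

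Of the 31 members, 26 had at least 1 window in the RefSeq table, 36 windows in all. A single AGGTCA was found in 2 of these, those of Pex11g and Phyh, or 5.56%, against 5340 of all 32851 windows, or 16.3%. No member window held the full repeat, which 13 of all windows held, or 0.0396%. With up to 2 mismatches the repeat was again in no member window and in 3.86% of all windows. None of the 6 windows of Pex11a, Abcd3, Lonp2 and Pex14 held either motif. These letters describe the windows alone, and response elements can lie outside them.

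No fission gene passed in either treated group. FIS1 and MFF are adaptors that recruit the GTPase DRP1, made from Dnm1l, to peroxisomes and mitochondria. Dnm1l signals were 446, 543 and 538 with permethrin, 484, 479 and 519.95 with clofibrate, and 457, 426 and 404 in controls. Clofibrate arrays lay above all control arrays, while permethrin arrays overlapped them, with log2 changes of 0.24 ± 0.12 and 0.20 ± 0.12 for permethrin and clofibrate. Fis1 read 466, 363 and 459 with permethrin, 535, 543 and 497 with clofibrate, and 488, 448 and 536 in controls. Each treated group overlapped the controls, but all 3 permethrin arrays lay below all 3 clofibrate arrays. Mff changed by 0.20 ± 0.16 with permethrin and by 0.04 ± 0.16 with clofibrate, and its probe set is of a type whose probes can match other transcripts.

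Genes for membrane assembly, Pex3, Pex16 and Pex19, lay above control on every treated array. PEX19 binds new membrane proteins in the cytosol, PEX3 receives them at the membrane, and PEX16 recruits PEX3. Pex19 signals were 707, 658 and 671 with permethrin, 641, 933 and 825 with clofibrate, and 465, 438 and 442 in controls. It rose with clofibrate by 0.81 ± 0.13 on the log2 scale, 1.76-fold, at a limma adjusted p of 0.00495, and no single left-out array ended that call. With permethrin the change was 0.59 ± 0.13 and missed the threshold at an adjusted p of 0.0566. Leaving out clofibrate replicate 1 or 2, which enter only through the shared estimate of spread and the adjustment, brought this to 0.0166 and 0.0359.

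Pex3 signals were 257, 237 and 259.7 with permethrin, 236, 270.3 and 259 with clofibrate, and 179, 173 and 168 in controls. The treated arrays overlapped each other and lay above all control arrays. Pex3 rose with clofibrate by 0.54 ± 0.12 (limma adjusted p 0.0192). The permethrin change was nearly as large, 0.52 ± 0.12, at an adjusted p of 0.0502. Without clofibrate replicate 1 the permethrin p became 0.0494. The clofibrate call was lost when control replicate 1 (adjusted p 0.0551), 2 (0.0623) or 3 (0.0709), or clofibrate replicate 2 (0.0657) or 3 (0.0813), was left out. Pex16 read 999, 947 and 969 with permethrin, 893, 1473 and 1245 with clofibrate, and 885, 674 and 743 in controls. All treated arrays again lay above the controls, with clofibrate replicate 1 close to control replicate 1. Its log2 change was 0.35 ± 0.17 with permethrin (limma adjusted p 0.397) and 0.63 ± 0.17 with clofibrate (0.055). Without clofibrate replicate 1 the clofibrate value was 0.83, at an adjusted p of 0.00638.

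**Figure D2:**
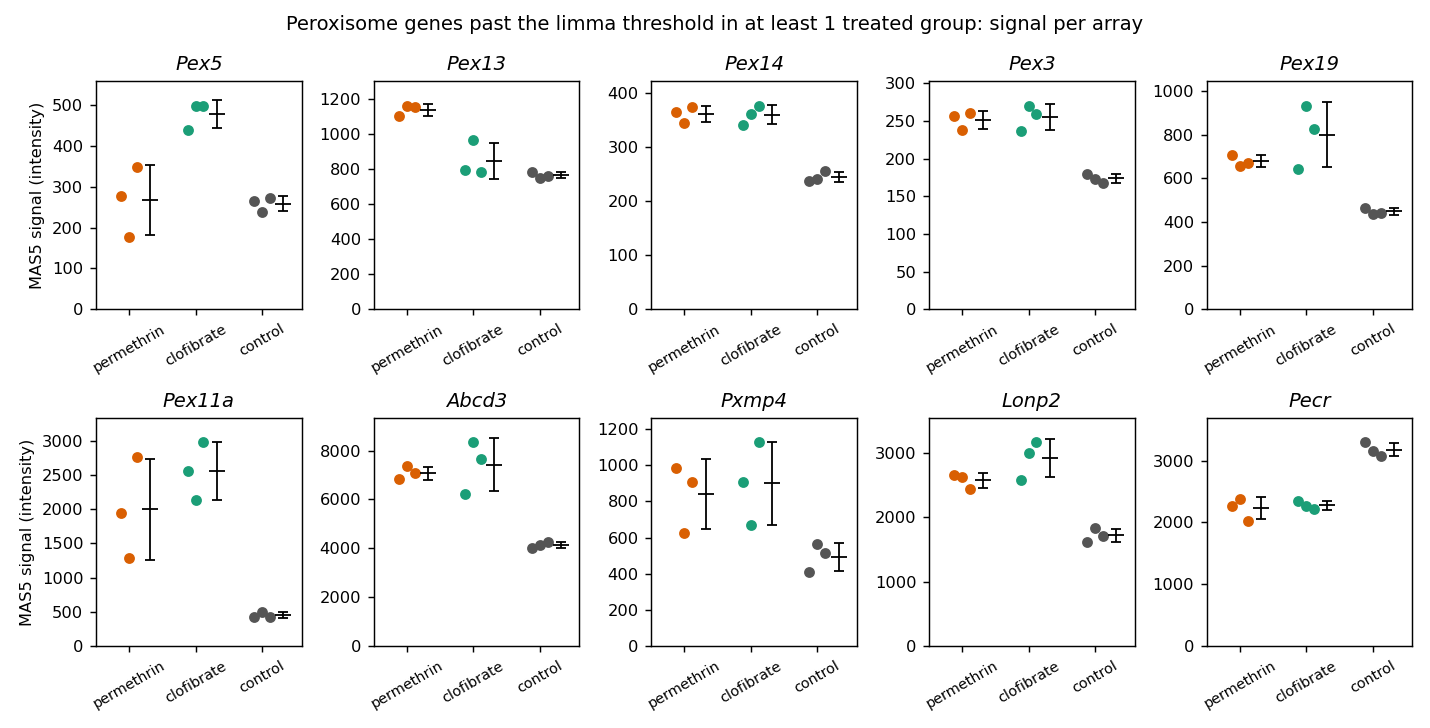
MAS5 signal on each array for the 10 peroxisome genes past an adjusted p of 0.05 in at least 1 treated group, with permethrin, clofibrate and control from left to right. Points are single mice, and the bar beside them is the mean with its SD (n = 3). The Pex11a signals are 1286 to 2765 with permethrin and 2135 to 2980.1 with clofibrate, against 426 to 501 in controls, while Pecr is the gene with its control points on top.

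The docking complex, which receives loaded import receptors at the membrane, is measured here as Pex13 and Pex14. Pex14 signals were 365, 345 and 374 with permethrin, 342, 361 and 377 with clofibrate, and 237, 240.3 and 256 in controls. Both treated groups lay above the controls and overlapped each other. Pex14 rose by 0.56 ± 0.11 with permethrin (1.47-fold, limma adjusted p 0.027) and by 0.55 ± 0.11 with clofibrate (1.46-fold, 0.0129). The permethrin call was lost without control replicate 1 (adjusted p 0.116), 2 (0.0915) or 3 (0.0754) and without permethrin replicate 1 (0.0715), 2 (0.0507) or 3 (0.112). The clofibrate call was lost without control replicate 1 (0.0569) or clofibrate replicate 3 (0.0689).

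Pex13 was the member that rose with permethrin and did not pass with clofibrate. Its signals were 1099.5, 1162 and 1151 with permethrin, 794, 967 and 780.4 with clofibrate, and 782, 751 and 763 in controls. The permethrin arrays lay above all others, and the clofibrate arrays overlapped the controls. The change was 0.57 ± 0.11 with permethrin (1.48-fold, limma adjusted p 0.0232) and 0.14 ± 0.11 with clofibrate (0.546). Leaving out any 1 of the 6 permethrin and control arrays ended the call. The adjusted p was 0.0908, 0.0824 and 0.0952 without control replicates 1, 2 and 3. It was 0.0544, 0.0673 and 0.0935 without permethrin replicates 1, 2 and 3. A second, dimmer Pex13 probe set passed in neither group, with 0.28 ± 0.20 for permethrin and -0.20 ± 0.20 for clofibrate.

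Of the import receptors, Pex5 rose with clofibrate and Pex7 passed in neither group. PEX5 carries most matrix enzymes, those with a C-terminal targeting signal, and PEX7 carries the few with an N-terminal one. Pex5 signals were 276, 177 and 348 with permethrin, 437, 498 and 498 with clofibrate, and 264, 238 and 273 in controls. Clofibrate arrays lay above all other arrays, whereas permethrin arrays fell on both sides of the controls and varied more. The log2 change was -0.00 ± 0.20 with permethrin (limma adjusted p 0.997) and 0.88 ± 0.20 with clofibrate (1.84-fold, 0.0281). A second Pex5 probe set gave 0.07 ± 0.17 and 0.73 ± 0.17, with adjusted p of 0.896 and 0.0263 for permethrin and clofibrate. The clofibrate call on the brighter probe set was lost without control replicate 1 (0.0832), 2 (0.0966) or 3 (0.069) and without clofibrate replicate 2 (0.0826) or 3 (0.103). Pex7 signals were 934, 992 and 903 with permethrin, 882, 995 and 969.5 with clofibrate, and 874, 808 and 986 in controls, with all groups overlapping.

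None of the 4 genes that release PEX5 from the membrane passed in either group. PEX2 and PEX10 belong to the RING ubiquitin ligase complex that tags PEX5, and PEX6, held at the membrane by PEX26, is an ATPase that extracts it. Pex2 read 501, 449 and 412 with permethrin, 415, 322 and 373 with clofibrate, and 459.9, 492 and 470.5 in controls. The clofibrate arrays lay below all control arrays, at a log2 change of -0.36 ± 0.13 (limma adjusted p 0.135), and the permethrin arrays overlapped the controls at -0.07 ± 0.13. A second, dimmer Pex2 probe set differed, with 0.02 for clofibrate and -0.37 for permethrin, and passed in neither group. Pex10 changed by -0.32 ± 0.27 with permethrin and -0.06 ± 0.27 with clofibrate, and Pex26 by -0.27 ± 0.18 and 0.10 ± 0.18. Pex6 stood at 0.19 ± 0.12 in both treated groups. Its brightest probe set is of the type that can match other transcripts, and its 4 other tested probe sets passed in neither group.

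Among the ABC transporters, Abcd3 rose in both treated groups. ABCD3, also known as PMP70, is an abundant peroxisomal membrane protein that imports branched and dicarboxylic acyl groups and bile acid intermediates. Its signals were 6821, 7355 and 7069 with permethrin, 6231, 8343 and 7673 with clofibrate, and 4015, 4131 and 4279 in controls. No treated array overlapped the controls, and the clofibrate arrays spanned the permethrin ones. The change was 0.77 ± 0.11 with permethrin (1.71-fold, limma adjusted p 0.00411) and 0.83 ± 0.11 with clofibrate (1.78-fold, 0.000986). No left-out array ended either call.

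Abcd2 and Abcd4 did not pass. ABCD2 imports very long and polyunsaturated fatty acyl groups, and ABCD4 is known from lysosomes, where it takes part in vitamin B12 export. Abcd2 read 135, 209 and 209 with permethrin, 91.8, 454 and 267 with clofibrate, and 138, 67.8 and 199.8 in controls. The groups overlapped and the intervals were wide, with log2 changes of 0.54 ± 0.51 and 0.84 ± 0.51. Abcd4 stood at 0.00 ± 0.27 with permethrin and -0.36 ± 0.27 with clofibrate.

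Of the 5 other membrane proteins, Pxmp4 rose with clofibrate and the others passed in neither group. PXMP4 is a peroxisomal membrane protein. It read 987, 624 and 909.8 with permethrin, 905, 669.9 and 1127 with clofibrate, and 407, 562 and 512 in controls. All treated arrays lay above the controls, with replicate 2 the lowest in each treated group. The change was 0.75 ± 0.22 with permethrin (limma adjusted p 0.129) and 0.84 ± 0.22 with clofibrate (1.79-fold, 0.0444). The call was lost without control replicate 1 (adjusted p 0.164), 2 (0.0673) or 3 (0.101), permethrin replicate 3 (0.0581), or clofibrate replicate 1 (0.0929) or 3 (0.169). A second Pxmp4 probe set gave 0.74 ± 0.22 and 0.72 ± 0.22 and passed in neither.

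Slc25a17 encodes the carrier that exchanges coenzyme A, FAD and NAD across the peroxisomal membrane. Its signals were 277, 219 and 321 with permethrin, 421, 264 and 370.1 with clofibrate, and 228, 261 and 220.5 in controls. Clofibrate arrays lay above the controls, replicate 2 by a small margin, and permethrin arrays overlapped them. The clofibrate change was 0.54 ± 0.19 (limma adjusted p 0.134), and without clofibrate replicate 2 it was 0.74 (0.0444). Acbd5, whose product tethers peroxisomes to the endoplasmic reticulum, read 3345, 3605 and 3187 with permethrin, 3238, 3564 and 3770.1 with clofibrate, and 3034, 2925 and 2659 in controls. It lay above all controls in both groups at small changes, 0.23 ± 0.10 (limma adjusted p 0.306) and 0.29 ± 0.10 (0.112). A second, dimmer Acbd5 probe set gave 0.07 with permethrin and -0.37 with clofibrate, and passed in neither. Mpv17, of the inner mitochondrial membrane, read 242, 287 and 235 with permethrin, 232, 341 and 255 with clofibrate, and 209, 203 and 192 in controls. It too lay above all controls, with changes of 0.33 ± 0.16 and 0.43 ± 0.16. Pxmp2, a channel for small solutes, stood on the low side at -0.32 ± 0.17 and -0.33 ± 0.17, with overlapping arrays.

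Both matrix proteases lay above control on all treated arrays, and Lonp2 passed. LONP2 degrades unfolded matrix proteins, and TYSND1 trims newly imported enzymes. Lonp2 read 2657, 2632 and 2442 with permethrin, 2585, 2999 and 3166 with clofibrate, and 1623, 1828 and 1712 in controls. The change was 0.58 ± 0.10 with permethrin (limma adjusted p 0.0157) and 0.76 ± 0.10 with clofibrate (1.69-fold, 0.00131). No left-out array ended the clofibrate call. The permethrin call was lost without control replicate 1 (0.0906) or 3 (0.067) and without permethrin replicate 1 (0.0562) or 2 (0.0535). Lonp2 had 3 other, dimmer tested probe sets. None of them passed, with log2 changes of 0.21 to 0.44 for permethrin and -0.07 to 0.57 for clofibrate. With the mean of the 4 probe sets in place of the brightest, the change was 0.39 with permethrin (adjusted p 0.262) and 0.45 with clofibrate (0.123). Tysnd1 read 463, 424 and 487 with permethrin, 437, 485 and 449.7 with clofibrate, and 344, 392 and 357 in controls. Its change was 0.33 ± 0.11 in both groups, at adjusted p of 0.206 and 0.126.

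**Figure D3:**
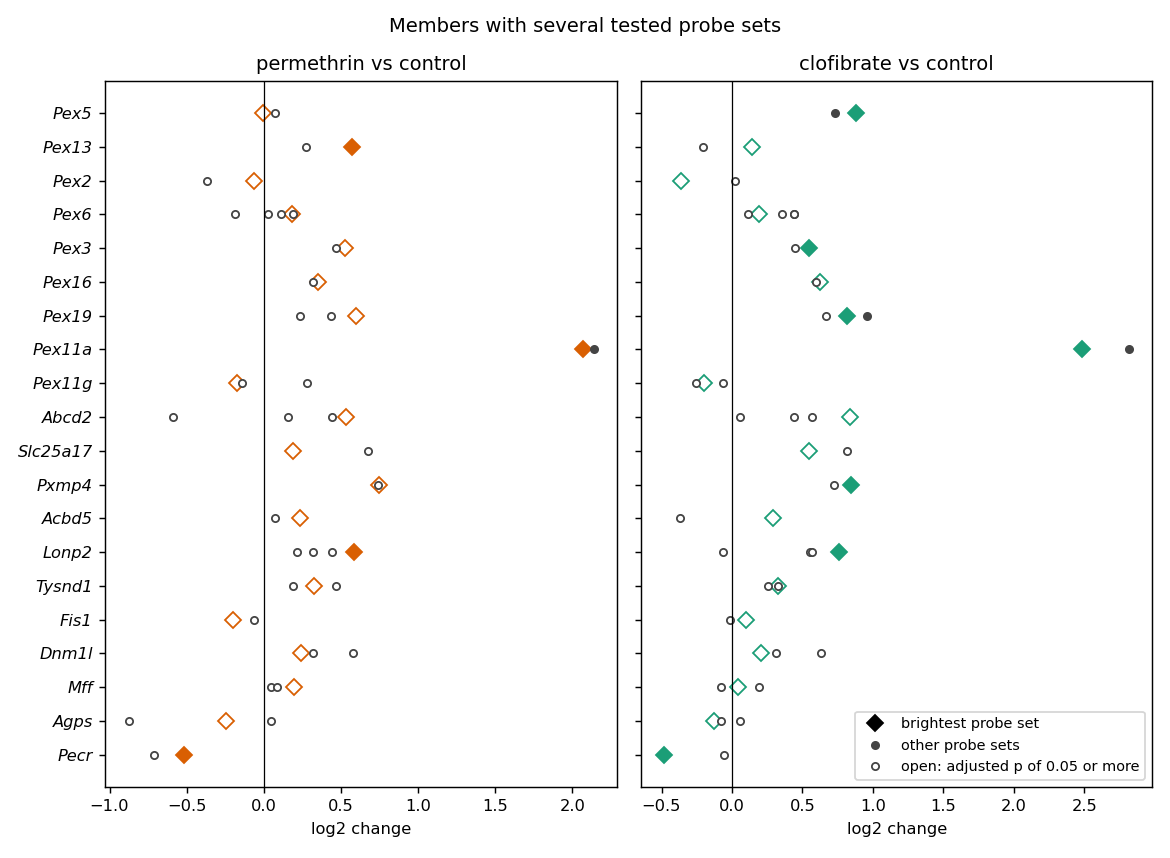
Log2 change against control for the 20 peroxisome genes with several tested probe sets, permethrin on the left and clofibrate on the right. Diamonds are the brightest probe set of each gene, circles its other probe sets, and filled marks passed an adjusted p of 0.05. Filled circles among the other probe sets are Pex11a on the left, and Pex11a, Pex19 and Pex5 on the right.

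Among the enzymes, Pecr fell in both treated groups and the other 4 passed in neither. PECR is a peroxisomal trans-2-enoyl-CoA reductase, an enzyme of fatty acid chain elongation that is grouped here with the alpha-oxidation enzymes. Its signals were 2270.4, 2377 and 2028 with permethrin, 2347, 2265 and 2209 with clofibrate, and 3296, 3151 and 3081 in controls. All treated arrays lay below all control arrays, and the treated groups overlapped. The change was -0.52 ± 0.09 with permethrin (1.43-fold lower, limma adjusted p 0.0166) and -0.48 ± 0.09 with clofibrate (1.40-fold lower, 0.0102). The permethrin call was lost without control replicate 1 (0.0938), 2 (0.0595) or 3 (0.0583) or permethrin replicate 3 (0.0796), and the clofibrate call without control replicate 1 (0.0542) or clofibrate replicate 3 (0.0544). A second, much dimmer probe set for Pecr gave -0.71 ± 0.20 with permethrin (adjusted p 0.11) and -0.06 ± 0.20 with clofibrate (0.914). Scaling to the hybridization controls gave -0.37 and -0.15 for Pecr, neither called, with the median of all genes shifted by 0.15 and 0.33.

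Gnpat and Agps make the first ether lipid intermediates. Gnpat read 269.7, 366 and 312 with permethrin, 247, 444 and 348 with clofibrate, and 298, 266 and 324 in controls, with overlap of all groups. Agps changed by -0.25 ± 0.17 with permethrin and -0.12 ± 0.17 with clofibrate. Phyh and Hacl1 carry out alpha-oxidation of phytanic acid, a branched fatty acid from the diet. Phyh read 6855, 6351 and 6305 with permethrin, 6014, 6199 and 6530.3 with clofibrate, and 6612, 6664 and 7757 in controls. Clofibrate arrays lay below all control arrays at -0.16 ± 0.09, and permethrin arrays overlapped at -0.11 ± 0.09. Hacl1 stood at 0.12 ± 0.14 with permethrin and 0.02 ± 0.14 with clofibrate.

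By group of role, 3 of the 13 peroxins rose with permethrin and 5 of 13 with clofibrate, and none fell, against 1.28% and 3.22% of all genes called higher. Leaving out any 1 permethrin or control array took the permethrin count to 1, that of Pex11a, with neither docking gene called. Without clofibrate replicate 1 or 2 it was 5 or 4. The clofibrate count was 2 without control replicate 1 or clofibrate replicate 3, and 3 without control replicate 2 or 3 or clofibrate replicate 2. Of the 8 membrane transporters and membrane proteins, 1 rose with permethrin and 2 with clofibrate, where Pxmp4 was lost with single arrays left out as given above. Of the 2 matrix proteases 1 rose in each treated group, and of the 3 fission genes none passed. Of the 5 ether lipid and alpha-oxidation enzymes none rose and 1 fell in each. Median log2 changes with permethrin and clofibrate were 0.19 and 0.19 for the peroxins, 0.28 and 0.49 for the membrane proteins, 0.46 and 0.54 for the proteases, 0.20 and 0.10 for the fission genes, and -0.11 and -0.12 for the enzymes, against -0.04 and -0.04 over all genes. The members had 64 tested probe sets, of which 6 rose and 1 fell with permethrin, against 1.61% of all probe sets called in either direction. With clofibrate 11 rose and 1 fell, against 5.64%.

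Set directly against each other, permethrin and clofibrate livers differed in none of the 31 members at the limma threshold, against 0.738% of all genes, 0.473% higher and 0.265% lower with permethrin. An unadjusted p under 0.05 was found for 4 members, Pex5, Pex13, Pex2 and Fis1, and for 13.0% of all genes. The median difference, permethrin minus clofibrate, was -0.06. Groups did not overlap for 1 member on the high side, Pex13, against 9.08% of all genes. They did not overlap for 2 on the low side, Pex5 and Fis1, against 9.02%, or 18.1% on either side. Pex5 was lower with permethrin by -0.88 ± 0.20 on the log2 scale (95% interval -1.33 to -0.44), at an unadjusted p of 0.00111 and a limma adjusted p of 0.0916. Without permethrin replicate 3 this became -1.10 at an adjusted p of 0.0412. Pex13 was higher with permethrin by 0.43 ± 0.11 (0.19 to 0.67), at an unadjusted p of 0.00198 and a limma adjusted p of 0.123. After adjustment over all probe sets, neither the clofibrate rise of Pex5 nor the permethrin rise of Pex13 was shown to differ between the chemicals. With array weights both differences passed, at adjusted p of 0.0484 for Pex5 and 0.0393 for Pex13.

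Intervals for the 4 genes called in both groups show how large a difference could have been missed. Pex11a differed by -0.41 (95% interval -0.91 to 0.09), Lonp2 by -0.17 (-0.40 to 0.05), Abcd3 by -0.06 (-0.29 to 0.18) and Pex14 by 0.01 (-0.23 to 0.24). For Pecr the difference was -0.03 (-0.23 to 0.17). The interval was widest for Abcd2, from -1.41 to 0.80.

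**Figure D4:**
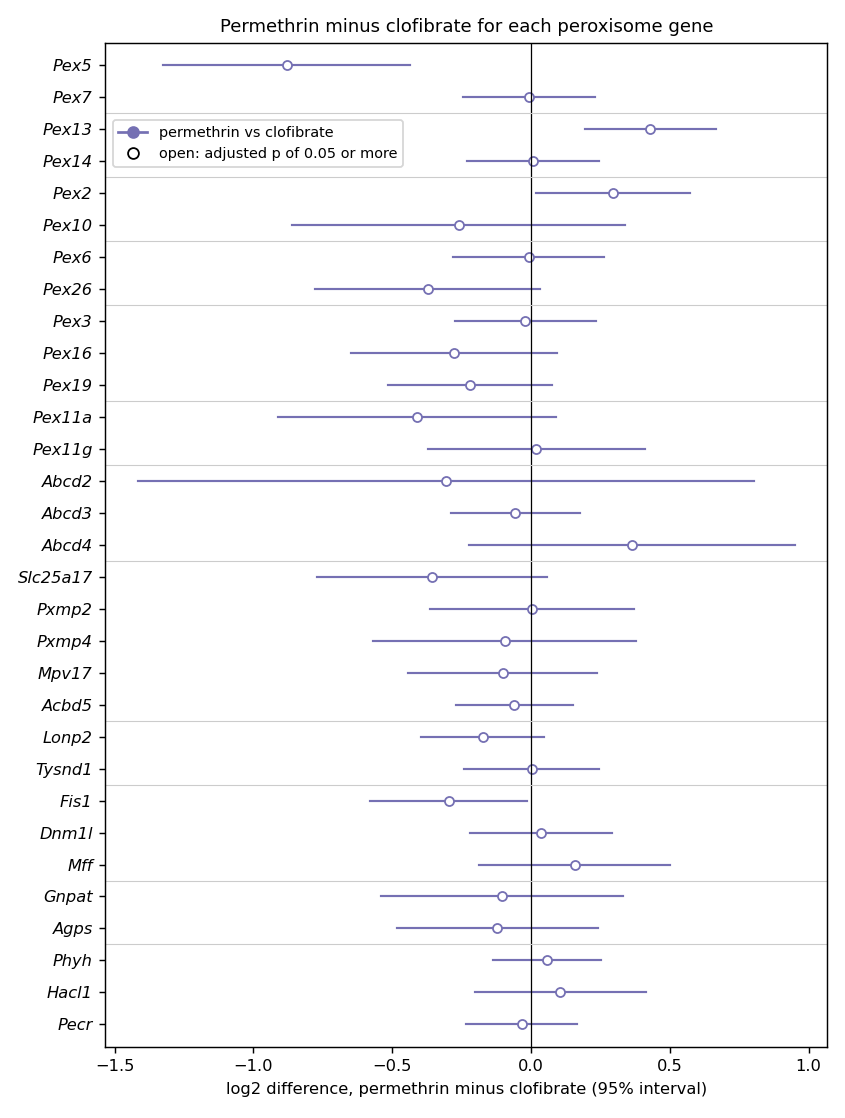
Log2 difference, permethrin minus clofibrate, for each of the 31 peroxisome genes with the 95% interval of the limma fit (n = 3 arrays per group). All circles are open, meaning an adjusted p of 0.05 or more, and the intervals of Pex5, Pex13, Pex2 and Fis1 leave out 0.

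Calls differed in how many of the fits that left out 1 array they passed. Such a fit has fewer mice, so a lost call alone does not show that the change rested on that array. The calls of Pex11a and Abcd3 in both groups, and of Pex19 and Lonp2 with clofibrate, stood in each of the 9 fits that left out 1 array. Over those fits the highest limma adjusted p was 0.00755 for Pex11a and 0.0283 for Abcd3 with permethrin. Every other call ended in at least 2 of the 9 fits. Under the 14 other settings, Pex11a in both groups and Abcd3 and Pex19 with clofibrate kept their calls. Abcd3 with permethrin lost its call only without the intensity trend (0.0658), and Lonp2 with clofibrate only with the mean of its probe sets. Median centring ended all other calls of members against control, and the fit without the trend ended these too, other than that of Pex14 with clofibrate.

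**Figure D5:**
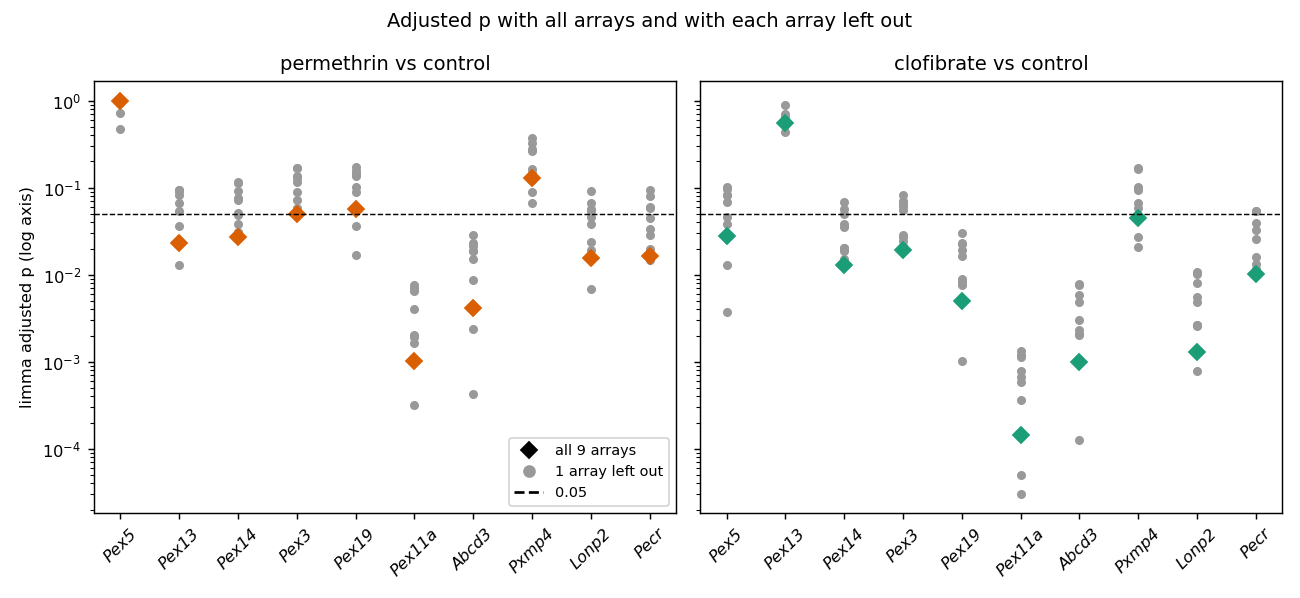
Limma adjusted p on a log axis for the 10 called peroxisome genes, against control, for permethrin (left) and clofibrate (right). Diamonds use all 9 arrays, grey points leave out 1 array each, and the dashed line is 0.05. All grey points of Pex11a and Abcd3 lie under the line in both panels.

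Other genes of the peroxisome were read beside the members. Of 19 tested genes of peroxisomal beta-oxidation, which take fatty acids apart inside the organelle, 7 rose with permethrin and 12 with clofibrate, and none fell, against 1.28% and 3.22% of all genes called higher. Their median log2 changes were 0.59 and 0.72, against -0.04 and -0.04 over all genes. The count with permethrin was 4 to 7 with single arrays left out, and 4 without control replicate 1, control replicate 2, permethrin replicate 1 or permethrin replicate 3. Under the other settings it was 3 (without the intensity trend) to 10 (with the mean of a gene's probe sets), and the clofibrate count 10 to 13. Crat, carnitine acetyltransferase, averaged 450.1 ± 46.6 with permethrin, 889.8 ± 111 with clofibrate and 137 ± 14.8 in controls. It rose by 1.69 ± 0.14 and 2.67 ± 0.14, and differed between permethrin and clofibrate by -0.98 ± 0.14 (limma adjusted p 0.011). Without clofibrate replicate 3 that difference was -0.90 at an adjusted p of 0.079. With the mean of its probe sets, Crat rose by 1.36 with permethrin and 1.85 with clofibrate. Ehhadh, the bifunctional enzyme of the pathway, rose by 1.52 ± 0.10 and 1.72 ± 0.10. Acot3, a peroxisomal acyl-CoA thioesterase, rose by 1.72 ± 0.27 and 2.23 ± 0.27, on a probe set of a type that can match other transcripts. Acot4, of the same family, rose with clofibrate by 2.13 ± 0.24, and with permethrin its change was 1.04 ± 0.24 at an adjusted p of 0.0599. Without control replicate 3 the Acot4 change with permethrin was 1.30 (0.0243).

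Oxidases and other matrix enzymes moved both ways. Of 12 tested, 1 rose and 2 fell with permethrin, and 2 rose and 3 fell with clofibrate. Of all genes, 1.28% and 3.22% were called higher, and 0.850% and 3.80% lower, with permethrin and clofibrate. Agxt, which detoxifies glyoxylate, averaged 2142 ± 221 with permethrin, 1976 ± 380.3 with clofibrate and 3738 ± 389 in controls, and fell by 0.80 and 0.93 on the log2 scale. Pipox, which oxidises pipecolic acid, fell by 0.61 and 0.85. Ephx2, soluble epoxide hydrolase, rose by 0.55 and 0.76, and Mlycd, malonyl-CoA decarboxylase, rose with clofibrate by 0.76 and stood at 0.26 with permethrin. The permethrin calls of Agxt, Pipox and Ephx2 were each lost in some fits that left out 1 array, which also have fewer mice. Over those 9 fits the log2 change was -0.89 to -0.74 for Agxt, -0.67 to -0.54 for Pipox and 0.51 to 0.58 for Ephx2. Agxt lost its call without control replicate 2 (limma adjusted p 0.0633) or 3 (0.0897) or permethrin replicate 1 (0.0626) or 3 (0.0807). Pipox lost its call without control replicate 1 (0.0706) or 3 (0.0734) or permethrin replicate 3 (0.0713). Ephx2 lost its call without control replicate 1 (0.0754), 2 (0.0502) or 3 (0.0692) or permethrin replicate 2 (0.0576). Without control replicate 3, or with median centring, none of the 12 was called with permethrin.

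Of 8 tested peroxins and membrane genes outside the 31, none passed with permethrin and 1 rose with clofibrate. This was Tmem135, a membrane protein of peroxisomes and mitochondria, with 563 ± 27.8, 689 ± 114 and 451 ± 62.6 in permethrin, clofibrate and control livers. Its changes were 0.33 ± 0.14 (limma adjusted p 0.347) and 0.61 ± 0.14 (0.0324). The call was lost without control replicate 1 (0.131) or 2 (0.08) and without clofibrate replicate 2 (0.103) or 3 (0.0864). Of 5 tested ether lipid genes outside the members, Dhrs7b, the reductase that follows Gnpat and Agps, rose with clofibrate by 1.17 ± 0.24 (0.0171). Its permethrin change was 0.68 ± 0.24 (0.234). The call was lost without control replicate 1 (0.0742) or 2 (0.0501) and without clofibrate replicate 2 (0.0612) or 3 (0.0726). No other gene of that list passed in either group. Beside both lists, 1.28% of all genes were called higher with permethrin and 3.22% with clofibrate.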

How the data were processed

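Liver RNA of 9 mice was hybridised to 1 array each. Per the submitters' processing notes the values are MAS5, with no version named. The deposited table holds the authors' linear signal intensity per probe set, and each array had the same trimmed mean of 100.001 after leaving out 2% at each end. Labels give no batch, and do not say more of the replicates than that they are biological.

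Of 45101 rows, 64 control probe sets were left out. Of the other 45037 probe sets, 34945 had 1 symbol in the platform annotation, 932 several and 9160 none, and genes were named only from the first kind. Symbols were updated through Entrez identifiers with the RefSeq gene table (GRCm38.p6) for 34754 probe sets. Signals had 3.35 (their 20th percentile) added before the log2 step, which understates changes of dim genes. Probe sets were tested when above 15.6, the median of all signals, on at least 3 arrays, which left 24546. limma 3.58.1 in R 4.3.3 fitted all 9 arrays with a mean per group and an intensity trend. Tests were two-sided, adjusted by Benjamini-Hochberg over the 24546 probe sets, with a threshold of 0.05. The fit was tested on simulated data. Log2 changes are given ± SE and signals ± SD, n = 3 per group. With arrays, the number of mice sets the precision.

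The members, roles and lists were chosen with earlier results of these data known. All 31 members are described, and of each other list up to 4 called genes with the largest changes are named. Alternatives changed the offset, normalization, filter, variance model, array weights, probe set rule, replicate block and arrays. Replicate numbers were not used to pair the arrays in the main fit. Deviations of same-numbered arrays correlated between -0.11 and 0.11. Differently numbered arrays were not set beside them, so these values do not settle whether the numbers pair the arrays. Motifs were searched by exact letters on both strands, and the repeat also with up to 2 mismatches.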

Additional observations from a re-analysis of the deposited data

Results flagged for a closer look

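Crat, carnitine acetyltransferase, is listed because its change differed between the treated groups by a direct test. Permethrin minus clofibrate was -0.98 on the log2 scale (limma adjusted p 0.011), with signals of 439, 409.97 and 501 in permethrin livers and 767, 920.1 and 983 in clofibrate livers. The groups did not overlap. The call was lost without clofibrate replicate 3 (-0.90, adjusted p 0.079), with median centring (0.0839), without the intensity trend (0.0845) and with the mean of the Crat probe sets (-0.48, 0.268). None of the 31 peroxisome genes passed this test.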

How the results depend on the processing

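The 31 peroxisome genes were refitted under 23 other settings, 9 of which leave out an array, and 1 of which, cyclic loess, was chosen after seeing the data. No called change reversed. Of 2136 values of single members, 2034 kept their side of the threshold, 71 lost a call and 31 gained one, and 91 values called in neither setting changed sign. Members called for permethrin against control numbered 6, against 2 with median centring and 1 without the intensity trend, and 2 to 8 with arrays left out. For clofibrate they numbered 9, against 4 with median centring and 5 without the trend, and 4 to 9 with arrays left out. For permethrin against clofibrate 0 passed, 2 passed with array weights, and 0 to 1 with arrays left out. The cause of these differences was not tested.

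Over all genes, permethrin called 266 (160 higher, 106 lower), against 143 (117 and 26) with median centring, 165 (143 and 22) with scaling to the hybridization controls and 80 without the trend, and 108 to 318 with arrays left out. Clofibrate called 876 (402 and 474), against 487 (305 and 182) with median centring, 397 without the trend and 1496 with array weights, and 430 to 889 with arrays left out. Scaling to the hybridization controls gave 1123 (1034 and 89). Permethrin against clofibrate called 92 (59 and 33), against 33 with median centring, 43 (9 and 34) with scaling to the hybridization controls, 139 with the stricter filter, 10 without the trend, 226 with array weights and 48 with only the groups compared in the fit, and 17 to 119 with arrays left out. Median centring shifted the median gene by 0.11 for permethrin, and hybridization scaling by 0.15, 0.33 and -0.19 in the 3 comparisons.

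A replicate block called 4 members with permethrin, ending the calls of Pex13 (adjusted p 0.0524) and Pex14 (0.062), 9 with clofibrate and 0 between the chemicals, and 205, 726 and 63 of all genes. The labels do not say whether same-numbered arrays belong together. The stricter filter left 30 members tested. With 3 mice a group, a change that missed the threshold is not shown to be absent, and the largest standard errors among the members were those of Abcd2 (0.51), Abcd4 and Pex10 (0.27 each). Batches could not be tested.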

Other observations

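Of 9 genes for the removal of peroxisomes and other organelles by autophagy, 2 rose with clofibrate and none passed with permethrin. They were Map1lc3a and Map1lc3b, which encode the LC3 proteins of the autophagosome membrane. The Map1lc3a probe set is of the type whose probes can match other transcripts. Of all genes, 3.22% were called higher with clofibrate and 1.28% with permethrin. Map1lc3a averaged 1242 ± 156 with permethrin, 1594 ± 75.4 with clofibrate and 999 ± 109 in controls (SD, n = 3), and rose with clofibrate by 0.68 ± 0.12 (limma adjusted p 0.00764). Map1lc3b averaged 1640.4 ± 105 with permethrin, 1898 ± 114 with clofibrate and 1319 ± 91.1 in controls, and rose with clofibrate by 0.52 ± 0.10 (limma adjusted p 0.0102). Without clofibrate replicate 3 the Map1lc3b value was 0.49 at 0.0577.

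Of 8 genes of mitochondrial fusion and of the fission machinery shared with peroxisomes, Mfn2, a fusion GTPase of the outer mitochondrial membrane, rose with clofibrate by 0.68 ± 0.17 (limma adjusted p 0.0441). Its permethrin change was 0.52 ± 0.17 at an adjusted p of 0.204. The clofibrate call was lost without control replicate 1 (0.151), 2 (0.0728) or 3 (0.121), permethrin replicate 2 (0.0554) or 3 (0.0501), or clofibrate replicate 2 (0.136) or 3 (0.144). Of 8 tested genes for PPAR alpha, its partners and coactivators and its target hormone Fgf21, 1 passed. This was Fgf21, which rose with clofibrate to 44.3 ± 7.99, against 19.4 ± 8.55 in controls, and read 24.7 ± 0.989 with permethrin. Its control signals lay near the filter of 15.6, and control replicate 3, at 9.76, lay below it. The limma adjusted p of Fgf21 with clofibrate was 0.0484. This call was lost without any 1 array other than control replicate 2, with adjusted p of 0.0625 to 0.182. None of 14 tested genes of mitochondrial protein import passed in either group, with 3 and 4 of them under an unadjusted p of 0.05 for permethrin and clofibrate. Scaling to the hybridization controls called 6 of these 14 with clofibrate. That setting also called 1123 of all 12466 genes with clofibrate (1034 higher, 89 lower) and shifted the median gene by 0.33. Beside the counts of these lists in the main fit, 1.28% of all genes were called higher with permethrin and 3.22% with clofibrate.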
